A study of Mus musculus with 10 samples.

Results

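After 3 days of factor-induced reprogramming of mouse embryonic fibroblasts, 11572 regions of chromatin were listed as open that had not been before, and 21839 regions open in the fibroblasts were no longer listed. Both sets come from ATAC-seq, in which a transposase inserts sequencing adapters into accessible DNA, and from the authors' peak lists of 2 fibroblast (MEF) and 2 day 3 (DAY3) libraries. Overlapping peaks of the 4 lists were merged into 111983 regions, against 208851 for all 10 lists of the series. A region was called gained when both DAY3 lists and neither MEF list held a peak in it (10.3% of merged regions), and lost in the reverse case (19.5%). Another 20320 regions, 18.1%, held a peak in all 4 lists and are called shared.

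The MEF, DAY3, DAY6 and DAY9 cells all had the strain C57BL/6 x 129 and the genotype OKSM Col1a1/M2rtTA ROSA26: the Oct4, Klf4, Sox2 and Myc transgene sat at Col1a1, and M2rtTA, which switches it on in the presence of doxycycline, at Rosa26. The MEF were grown in fibroblast medium without doxycycline. Cells collected at day 3 were in embryonic stem cell medium with 1 ug/ml doxycycline and 50 ug/ml ascorbic acid. Factor induction, ascorbic acid, the change of medium and the days in culture therefore differ together between MEF and DAY3 and cannot be told apart. Neither group was sorted, so a DAY3 library is a mixture of cells at whatever stage each had reached, and a region open in fewer cells cannot be told apart from one less open in each cell. DAY6 and DAY9 cells had the same treatment for 6 and 9 days and were sorted as SSEA1+. The ESC libraries are the V6.5 embryonic stem cell line on irradiated feeder cells with LIF and serum, without the cassette in the labels. Each library was made from 50000 cells, and the replicates are named as biological without a named embryo or culture.

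As background, Oct4 and Sox2 bind the octamer and SOX motifs, Klf4 binds GC-rich KLF motifs, and Myc binds the E-box. Fibroblast enhancers are known to be held open by AP-1, a dimer of Fos and Jun proteins, together with TEAD, RUNX and CEBP factors. During reprogramming the fibroblast program is shut off and cells take on epithelial junctions before the pluripotency network is switched on. Promoters of broadly expressed genes tend to be open in all cell types, while enhancers far from genes differ between them.

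The MEF lists held 74444 and 64295 peaks and the DAY3 lists 45766 and 45497. The commonest expected pileup in the background of a list, a measure of relative depth recovered from the deposited values, was 3.42 and 8.32 in MEF and 5.30 and 5.27 in DAY3. The MEF libraries thus differed from each other in depth more than the DAY3 libraries did. Peak heights in the DAY3 libraries differed by 1.33 times counting noise against 5.45 times in the MEF libraries, and the DAY3 pair was therefore counted as 1 sample. With 2 libraries against 2 an exact two-sided permutation test cannot go below p = 0.333, so the sets are described without a test. No peak means no call at the authors' threshold, not closed chromatin. At the starts of 10 fibroblast marker genes, MEF held peaks at 10 and 9 and DAY3 at 5 and 7. Either gene end counted as a start where the reference gave none, as for Esrp1 and Cdh1. At 6 epithelial marker starts MEF held 1 and 0 and DAY3 3 and 2, and at 6 pluripotent marker starts MEF held 1 and 4 and DAY3 3 and 1. The starts of Postn and Col3a1, both genes of the extracellular matrix, were open in both MEF and neither DAY3 library. Those of Prrx1, Twist1, Twist2, Col1a1 and Fn1 were open in all 4. The ESC libraries held peaks at 6 and 6 of the 10 fibroblast marker starts. Markers of other cell types gave at most 1 of 3 muscle, 1 of 4 neural, 3 of 4 endothelial and 2 of 5 haematopoietic gene starts in any of the 4 lists. The endothelial starts numbered 1 and 1 in MEF and 3 and 2 in DAY3, and their part in the results was not tested.

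Sequences can be shown where a gained or lost region covers a promoter of the RefSeq table (build GRCm38.p6, the mm10 assembly). Stretches of lost promoters that hold the AP-1 motif TGAGTCA, on either strand, are shown because its share differed most between lost and gained promoters among the motifs searched. They were chosen after their values were seen, as those with the highest folds. Each is written 5′ to 3′ along its gene, with the motif in capitals.
Dmd: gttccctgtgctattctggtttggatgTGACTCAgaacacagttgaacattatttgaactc
Cdk15: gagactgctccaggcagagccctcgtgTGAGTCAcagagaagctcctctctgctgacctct
Lpin3: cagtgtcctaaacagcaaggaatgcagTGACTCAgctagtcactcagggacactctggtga
Olr1: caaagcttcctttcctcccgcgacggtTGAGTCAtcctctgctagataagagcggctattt
Mctp1: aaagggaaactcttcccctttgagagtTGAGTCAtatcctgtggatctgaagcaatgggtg
These lie at chrX:82948658-82948718 (+), chr1:59256835-59256895 (+), chr2:160880505-160880565 (+), chr6:129507192-129507252 (-) and chr13:76579504-76579564 (+). The fold enrichment over local background, the authors' value for each peak, was 12.9 and 9.33 in the MEF libraries at the Dmd start, which belongs to the dystrophin gene, and 7.72 and 5.36 at Olr1, an oxidised lipoprotein receptor. Neither start had a peak in any of the DAY3, DAY6, DAY9 or ESC libraries. The Cdk15 start, with 12.9 and 6.11 in MEF, was not listed at DAY3 or DAY6 and was listed again in DAY9 replicate 1 and in both ESC libraries, at 9.59 and 4.18.

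Gained promoters that hold the octamer ATGCAAAT, the site Oct4 reads, and the SOX motif AACAAAG are shown by the same rule, 3 of each. A single match per stretch is in capitals, and the Mobp stretch holds further matches to the SOX motif in small letters.
Aldh1a1: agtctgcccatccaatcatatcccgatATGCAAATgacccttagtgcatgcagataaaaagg
Pipox: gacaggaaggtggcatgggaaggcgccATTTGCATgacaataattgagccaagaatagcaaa
Pim2: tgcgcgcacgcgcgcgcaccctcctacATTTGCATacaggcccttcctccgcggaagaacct
Cpsf4l: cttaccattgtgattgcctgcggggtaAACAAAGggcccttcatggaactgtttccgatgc
Mobp: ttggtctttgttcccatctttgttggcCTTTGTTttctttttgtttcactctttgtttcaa
Mad1l1: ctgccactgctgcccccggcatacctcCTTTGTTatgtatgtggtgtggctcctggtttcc
The stretches lie at chr19:20601885-20601946 (+), chr11:77894033-77894094 (-), chrX:7878077-7878138 (+), chr11:113710123-113710183 (-), chr9:120149494-120149554 (+) and chr5:140175039-140175099 (-). The octamer of Aldh1a1, a retinaldehyde dehydrogenase, lies 48 bases before the gene's start, and its region had folds of 9.80 and 9.05 at DAY3. Pim2, a growth-promoting kinase, had 6.28 and 7.48 at DAY3, 8.94 and 12.8 at DAY6, 12.5 and 12.6 at DAY9 and 13.9 and 9.91 in ESC. Pim2, Pipox, Cpsf4l and Mobp were listed in all 8 libraries from DAY3 on. Aldh1a1 was listed in all of them but ESC replicate 2, and Mad1l1 was listed through DAY9 and not in ESC.

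Most gained and lost regions lay far from gene starts. A gene start lay within 1 kb of 457 gained regions (3.95%) and 744 lost regions (3.41%), against 10998 shared regions (54.1%) and 14.1% of all merged regions. The median distance to a gene start was 36.6 kb for gained and 40.7 kb for lost regions. More than 100 kb separated 25.3% of gained and 27.9% of lost regions from any gene start, against 8.27% of shared regions. Inside the body of a protein-coding gene lay 56.2% of gained, 49.5% of lost and 75.9% of shared regions. The difference between the gene-start shares of gained and lost regions depended on the number of peaks used: with the same number taken from each list, by score, they were 6.51% and 2.76%. Without MEF replicate 1 they were 6.89% and 3.40%.

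**Figure D1:**
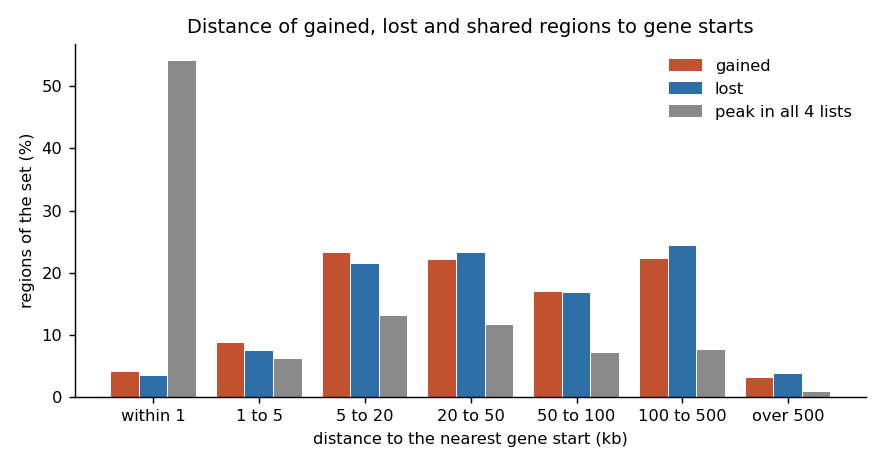
Share of regions (percent) by distance to the nearest protein-coding gene start, in bins of kb, for gained, lost and shared regions of the MEF and DAY3 lists. Shared regions concentrate in the bin up to 1 kb (54.1%), while 3.95% of gained and 3.41% of lost regions lie there.

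Gained and lost regions were also narrower than shared ones. The median width was 600 bp for gained regions (quartiles 476 and 761 bp), 555 bp for lost regions (451 and 712 bp) and 941 bp for shared regions (716 and 1195 bp). Median fold was 4.55 and 4.47 for gained regions in the DAY3 libraries, where shared regions had 6.22 and 6.31. It was 5.66 and 3.65 for lost regions in the MEF libraries, where shared regions had 8.83 and 5.33. Within their own lists these peaks stood in the middle of the authors' ranking, with a median rank of 51.4% and 51.3% for gained and 46.3% and 49.3% for lost regions. Just outside the rule, regions listed in 1 DAY3 library only numbered 5165 and 5062, with median folds of 3.17 and 3.19. Regions listed in both DAY3 libraries and also in 1 MEF library numbered 2822 (MEF replicate 1) and 1000 (MEF replicate 2).

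Gained sites opened closer to existing fibroblast peaks than lost sites lay to remaining ones. The nearest MEF peak was a median 6.42 kb from a gained region, with 11.7% of gained regions within 1 kb of one. The nearest DAY3 peak was a median 12.6 kb from a lost region, with 6.8% within 1 kb. The MEF lists hold more peaks than the DAY3 lists, and the part of this in the distances was not tested.

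The excess of lost over gained regions depended on the number of peaks used. Gained regions made up 34.6% of the changed regions. When the 45497 best-scoring peaks of every list were used, 13959 regions were gained and 12049 lost, and the gained share was 53.7%. With MEF replicate 1 or MEF replicate 2 left out, lost regions numbered 37039 and 43745, because 1 list then sufficed for a call, and the gained share was 28.2% and 22.3%. Shares of gained regions given below for groups of genes are therefore accompanied by their value at equal numbers of peaks.

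The strongest gained regions described here, 7 in number, lay inside genes or between them, 23.2 to 386 kb from any gene start. By mean rank of the authors' score, the leading one lay inside Vps41, a gene of vesicle fusion with the lysosome (chr13:18855858-18856789), 91.6 kb from the nearest gene start, with folds of 13.6 and 13.1 at DAY3. It was listed again at 16.7 and 17.5 at DAY6, 15.5 and 16.9 at DAY9 and 3.35 and 5.73 in ESC. The next lay 283 kb from its nearest gene, Usp25, a deubiquitinase (chr16:77400219-77401196), with 14.3 and 15.5 at DAY3 and 12.9 and 13.5 in ESC. Others lay in Nhsl1, BC052040, Pdzph1 and Vps13d, a lipid transport gene, and 143 kb from Pik3c3, the class III phosphoinositide kinase. All 7 were listed in both DAY6 and both DAY9 libraries, and 6 of them in both ESC libraries; the Vps13d region was listed in ESC replicate 2 only.

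The strongest lost region lay inside Il1rl1, the receptor of interleukin-33, 5.02 kb from its start (chr1:40444648-40445342), with folds of 18.9 and 14.3 in MEF. Further leading lost regions lay 72.8 kb from Rassf9, 117 kb from C1d, 1.49 kb from Asb5, 7.32 kb from Ankrd16, 611 kb from Nr2f1, a nuclear receptor of mesenchyme and neural crest, inside Gramd1b, and 69.3 kb from Pcdh20. The C1d region had the highest fold in MEF replicate 1, 21.2, with 13.8 in replicate 2. Of these 8 regions, 7 had no peak in any of the 8 libraries of DAY3 and later stages, and the Gramd1b region had one in ESC replicate 1 (9.13).

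**Figure D2:**
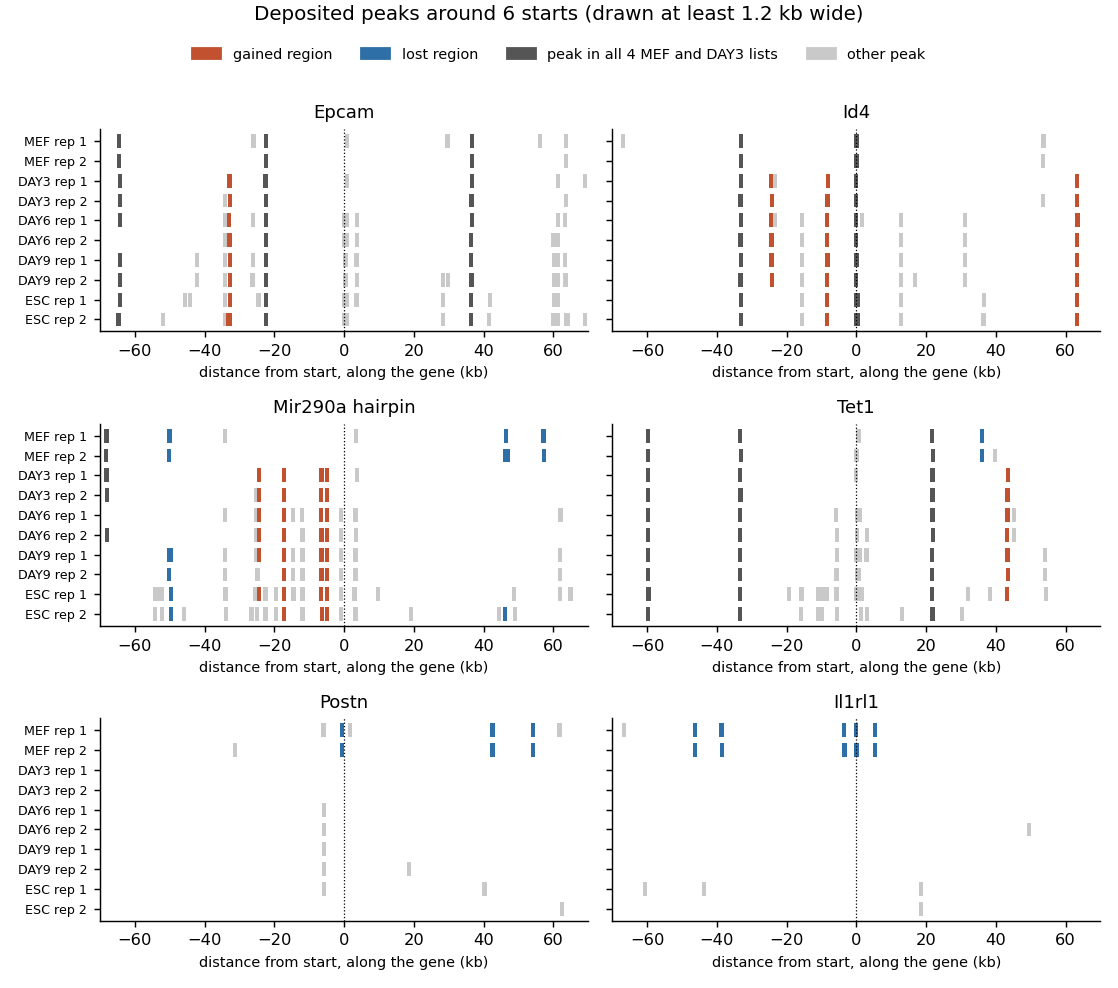
Peaks of the 10 libraries within 70 kb of a gene or hairpin start, plotted by distance from that start in kb, one row per library, with peaks that overlap a gained or a lost region in colour. Epcam and Id4 show gained regions, Postn and Il1rl1 show lost regions, and Tet1 and the Mir290a hairpin show both, with the gained regions of Mir290a nearer to the hairpin than its lost ones.

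A gained region was linked to 5555 of 21887 protein-coding genes (25.4%) and a lost region to 7927 (36.2%), counting every gene a region lay in and otherwise the nearest gene within 100 kb. Both kinds were linked to 3642 genes, which is 65.6% of the genes with gained and 45.9% of those with lost regions. These genes were long, with a median of 80.1 kb against 17.2 kb for all genes and 9.23 kb for genes with neither. When genes were split by length into 4 classes of equal size, 54.7% of the longest had a gained and 70.1% a lost region, and 7.88% and 12.8% of the shortest.

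The genes with the most gained regions were Tenm4, a transmembrane teneurin of cell contact, with 17, the phosphodiesterase gene Pde4d with 16, the repressor gene Zbtb20 with 16 and the scaffold gene Magi2 with 13. Cdh13, Ebf1, Nav2, Slit3 and Tenm3 had 12 each and Cdk14 had 11. Tenm4 and Zbtb20 each had 6 lost regions beside these, while Pde4d had 13 and Slit3, a guidance ligand, had 13 lost regions beside 12 gained. Most of the 17 Tenm4 regions persisted, with 15 and 15 listed at DAY6, 14 and 15 at DAY9 and 9 and 6 in ESC. In Magi2, 13 and 12 of 13 were listed at DAY6 and 1 and 1 in ESC. The genes with the most lost regions were Lpp, an actin-linked focal adhesion gene, with 24, Arhgap26 with 22, Dlg2 with 21, Elmo1 with 20, and Dlc1, a focal adhesion gene, with 19. Macrod2 also had 19, Pakap and Rad51b had 18, Asic2 had 17 and Auts2 had 16. None of the 19 lost regions of Macrod2 had a peak in any DAY6, DAY9 or ESC library, and of the 24 in Lpp 1 had one in DAY9 replicate 1 and 2 in ESC replicate 2. All 20 of these genes are between 385 and 1998 kb long.

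Genes of the fibroblast's matrix had mostly lost regions. Each of the 15 collagen genes on the list had at least 1 lost region (100%, against 36.2% of all genes and 70.1% of the longest class of genes), and 10 had a gained one. They held 86 lost and 19 gained regions, a gained share of 18.1% and of 35.6% at equal numbers of peaks, with a median gene length of 114 kb. Col4a1, a basement membrane collagen, had 10 lost and 6 gained regions, and its strongest gained region had folds of 11.4 and 12.1 at DAY3. Col5a1, a fibrillar collagen, had 9 lost regions and no gained one, and the strongest had 13.0 and 7.08 in MEF. Col1a1 had 5 lost regions, among them a region within 1 kb of its start with 5.13 and 2.97 in MEF. Both DAY3 libraries still held a peak within 1 kb of that start. The Col1a1 locus also carries the cassette in both groups. Of the 86 lost collagen regions 78 were listed in no later library (90.7%, against 79.5% of all lost regions).

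Other matrix and cytoskeleton genes had 46 lost and 11 gained regions over 22 genes, a gained share of 19.3% and of 31.6% at equal numbers. A lost region was linked to 15 of the 22 (68.2%, against 36.2% of all genes) and a gained one to 5 (22.7%, against 25.4%). Postn, the matrix protein periostin, had 7 lost regions and 1 gained. Its start, chr3:54358394-54359113, had 8.19 and 5.50 in MEF, and the strongest of the others, 89.0 kb beyond the gene, had 13.1 and 9.80. No lost Postn region was listed at any later stage. Fbn1, the microfibril gene fibrillin, had 7 lost and 4 gained regions, while Fn1, the gene of fibronectin, had 2 lost and 4 gained. Lost regions also lay within 1 kb of the starts of Cnn1, calponin (5.81 and 2.73 in MEF), Fap, the fibroblast activation protein (5.62 and 3.18), and Tpm2, a tropomyosin (4.89 and 4.31).

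Signalling genes of fibroblasts also had more lost than gained regions. Inflammatory and cytokine genes had 35 lost and 7 gained regions over 15 genes, a gained share of 16.7% and of 34.4% at equal numbers. Il1r1, the interleukin-1 receptor, had 6 lost and no gained region; its start had 8.33 and 5.04 in MEF and no peak in any of the 8 other libraries. Ptgs2, the inducible prostaglandin synthase, also had 6, of which 1, with 8.89 and 3.11 in MEF, was listed again at 12.1 and 10.5 at DAY9. The TGF-beta pathway had 60 lost and 18 gained regions over 16 genes (23.1%, and 40.4% at equal numbers), and 15 of the 16 genes had a lost region, against 36.2% of all genes and 70.1% of the longest class (median length of the list 65.4 kb). Smad3, the signal transducer, had 8 lost and 2 gained regions. Ltbp1, which binds latent TGF-beta, had 12 lost and 7 gained ones. Of the 18 gained regions 16 were open in both DAY6 and 16 in both DAY9 libraries (88.9% each, against 71.3% and 72.9% of all gained regions). In both ESC libraries 1 was open (5.56%, against 25.2%).

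Genes of transcription factors were more mixed. Fibroblast lineage factors, among them Foxf1 and Foxf2, had 25 lost and 17 gained regions over 20 genes. Their gained share was 40.5%, and 70% at equal numbers of peaks, above the 34.6% and 53.7% of all changed regions. Without MEF replicate 2 it was 22.2%, just below the 22.3% of all changed regions. AP-1 genes had 30 lost and 8 gained regions over 13 genes, a gained share of 21.1% and of 38.5% at equal numbers. Of the 30 lost regions 15 were linked to Bach2, a repressor that competes with AP-1, and 4 to Fos, of which the strongest lay 20.1 kb from the gene with folds of 11 and 6.20 in MEF. Mesenchymal transition factors had 40 lost and 21 gained regions (34.4%, and 48.9% at equal numbers, near the 34.6% and 53.7% of all changed regions), and 10 of 11 genes had a lost region, against 36.2% of all genes and 70.1% of the longest class. Zeb2, a repressor of epithelial genes, had 6 lost and 4 gained regions, with 13.96 and 8.58 in MEF at the strongest lost one. None of the 40 lost regions was open in both libraries of DAY6, DAY9 or ESC, where 3.95%, 7.53% and 7.59% of all lost regions were. Of the 21 gained regions, 14 were open in both DAY6 libraries (66.7%) and 6 in both ESC libraries (28.6%), near the 71.3% and 25.2% of all gained regions. Runx, Cebp and Nfi genes had 36 lost and 25 gained regions (41.0%, and 65.4% at equal numbers). None of the 36 was open in both libraries of a later stage, and of the 25 gained regions 18 were at DAY6, 20 at DAY9 and 1 in ESC. The Tead and Yap pathway had 37 lost and 21 gained regions (36.2%, and 53.5% at equal numbers), near the shares of all changed regions, and Tead1 itself had 8 and 5.

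**Figure D3:**
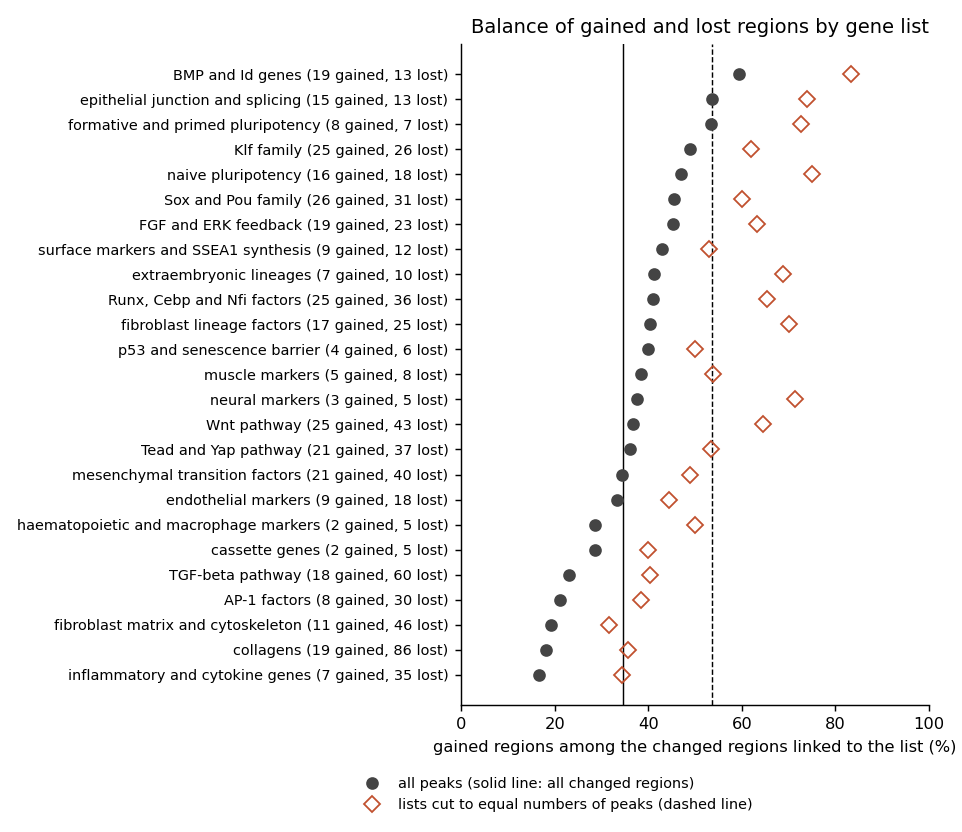
Gained share of the changed regions (percent) linked to each list of genes, with all peaks and with equal numbers of peaks per list, beside the share over all changed regions (34.6% and 53.7%). Matrix, inflammatory, AP-1 and TGF-beta lists lie below the share of all regions in both settings, and BMP, epithelial and pluripotency lists lie above it. Extraembryonic and neural lists also lie above it.

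Epithelial and pluripotency genes had gained shares above that of all changed regions (34.6%, and 53.7% at equal numbers of peaks). This was not particular to them. Extraembryonic (41.2%, and 68.8% at equal numbers), neural (37.5%, and 71.4%) and muscle lists (38.5%, and 53.8%) also lay above all changed regions. Endothelial (33.3%, and 44.4%) and haematopoietic lists (28.6%, and 50%) lay below. The epithelial list had 15 gained and 13 lost regions over 22 genes, a gained share of 53.6% and of 73.9% at equal numbers, with 9 genes that had a gained region (40.9%, against 25.4% of all genes) and 10 that had a lost one (45.5%, against 36.2%). Krt7, Krt8, Krt18 and Krt19, keratins of simple epithelia, the junction gene Ocln and the factor Ovol2 had lost regions and no gained one. Still, both DAY3 libraries and neither MEF library held a peak within 1 kb of the Krt8 start, where no gained region was called. The lost region inside Ocln had 14.8 and 7.62 in MEF. Cdh1, which encodes E-cadherin, had 3 gained regions and no lost one. They lay 3.22 kb outside the gene (6.62 and 6.18 at DAY3) and inside it (7.34 and 8.21, and 3.03 and 3.8). All 3 were listed in every DAY6 and DAY9 library. The start of Cldn3, a tight junction gene, opened at DAY3 with folds of 5.56 and 5.84 and was listed in every library after that. A region within 1 kb of an end of Esrp1, an epithelial splicing factor, had 5.39 and 5.65. Which end is the Esrp1 start was not given in the reference. A region 32.2 kb from Epcam, an epithelial adhesion gene, had 7.28 and 7.48. The Cldn3 promoter, the 250 bases before the gene's start at chr5:134985964-134986213 (+), is shown because the gained region covers it. Its overlapping matches to the KLF motif GGGNGTGG, read on the other strand, are in capitals.
Cldn3: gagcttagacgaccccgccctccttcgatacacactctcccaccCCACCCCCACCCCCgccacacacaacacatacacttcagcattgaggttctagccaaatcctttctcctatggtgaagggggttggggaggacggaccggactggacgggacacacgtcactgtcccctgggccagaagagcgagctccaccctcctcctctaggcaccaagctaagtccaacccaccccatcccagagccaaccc

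Naive pluripotency genes had 16 gained and 18 lost regions over 24 genes. A gained region was linked to 11 of them (45.8%, against 25.4% of all genes) and a lost one to 10 (41.7%, against 36.2%). Their gained share was 47.1%, and 75% at equal numbers. Without MEF replicate 1 and without MEF replicate 2 it was 32% and 33.3%, against 28.2% and 22.3% of all regions. Tfcp2l1, a factor of naive stem cells, had 3 of each. The strongest gained one, 4.51 kb outside the gene, had 8.96 and 10.9 at DAY3 and was listed in all 6 later libraries, as were the other 2. Its lost regions had no peak later, except for 1 in DAY9 replicate 2. Esrrb, a nuclear receptor of naive cells, had 3 lost regions and no gained one, with 7.48 and 3.00 in MEF at the strongest. The start of Fbxo15, an early marker of reprogramming, had 9.22 and 9.14 at DAY3. A gained region 32.3 kb from Dppa3 had 6.88 and 6.72, and one inside Fgf4, a growth factor of stem cells, had 3.27 and 5.38. Tet1, a DNA demethylase gene, held a gained region with 12.2 and 7.81 at DAY3 and a lost region with 14.8 and 7.72 in MEF. Of the 16 gained regions both libraries listed 14 at DAY6, 15 at DAY9 and 9 in ESC. These are 87.5%, 93.75% and 56.25%, against 71.3%, 72.9% and 25.2% of all gained regions. Formative and primed genes had 8 gained and 7 lost regions (53.3%, and 72.7% at equal numbers). Their share was 29.6% without MEF replicate 2, and in the top 50% of each list none of 6 changed regions was gained, against 34.1% of all. Gained regions lay within 1 kb of the starts of Nodal (4.53 and 3.31) and Lefty1 (3.92 and 4.14), a signalling ligand and its inhibitor.

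BMP and Id genes had 19 gained and 13 lost regions, a gained share of 59.4%, and of 83.3% at equal numbers, the highest of the 26 lists in both settings. With the top 50% of each list it was 61.1%, below the extraembryonic (71.4%), naive (68.8%) and epithelial (62.5%) lists, and without MEF replicate 1 it was 42.3%, below the epithelial (48.7%) and neural (46.7%) lists. Id genes encode inhibitors of basic helix-loop-helix factors. Id1 and Id4 had 3 gained regions each and no lost one, and Id2 had 3 gained and 2 lost. The strongest at Id4, 7.74 kb from the gene, had 11.3 and 9.92 at DAY3 and was listed in every later library. The Klf family had 25 gained and 26 lost regions (49.0%, and 62.0% at equal numbers), and 9 of the gained ones were linked to Klf12. The Sox and Pou family had 26 and 31 (45.6%, and 60.0%), of which Sox5 had 8 gained and 14 lost. FGF and ERK feedback genes had 19 and 23 (45.2%, and 63.2%), with 4 gained at Etv5, but 23.8% with the top 50% of each list, below the 34.1% of all regions. Of 26 lists, 23 lay on the same side of the share over all regions with all peaks and with equal numbers. The cytosolic ribosomal protein genes had 1 lost region and no gained one over 16 genes.

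The genes of the cassette held no gained or lost region within their bodies. Pou5f1, Klf4, Sox2 and Myc held 1, 2, 2 and 2 regions listed in all 4 libraries, and reads of the cassette cannot be told apart from those of the endogenous copies there. Of these, the Sox2 region chr3:34650420-34651384 was listed in every MEF, DAY3, DAY6 and DAY9 library and in neither ESC library. Around the 4 genes, Sox2 had 2 gained regions 89.3 and 90.4 kb from the gene, with 3.81 and 4.93, and 8.96 and 7.73 at DAY3. Both were listed in every DAY6 and DAY9 library and in neither ESC library. Klf4 had 3 lost regions, Myc 1 and Sox2 1, the last with 4.53 and 9.56 in MEF.

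A gained region lay within 1 kb of the starts of 468 genes (2.14%) and a lost region at those of 749 (3.42%). Of these genes, 252 and 481 had no shared region at a start. The others had a shared region within 1 kb of a start as well, which may be another start or end of the gene. On the lists, the start of Nfix, a nuclear factor I gene, had 6.50 and 4.41 at DAY3, that of Cdkn1a, the cell cycle inhibitor p21, 3.47 and 4.01, and that of Cebpd 3.37 and 2.56. None of these 3 was listed in ESC. Among lost starts, Col3a1 had 5.29 and 3.07 in MEF and was listed in none of the other libraries. Foxf1, a factor of mesenchyme, had 6.09 and 2.63 in MEF, no peak at DAY3, and a peak in all 6 later libraries. These starts were picked for description after their values were seen.

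Some regions of each set also lay in runs. With gaps of at most 10 kb, 166 clusters of 3 or more gained regions held 528 regions (4.56%), and 549 clusters of lost regions held 1811 (8.29%). The share in runs was not computed for shared or all merged regions. Whether it exceeds what the density of regions gives was not tested. The longest gained run held 7 regions over 29.4 kb at Aldh3a1 and Aldh3a2, genes of aldehyde oxidation, with no shared region among them, and 5 and 4 of the 7 were listed at DAY6 and 1 and 2 in ESC. Runs of 5 lay near Plekhb2 and near Eif3h, and a run of 4 lay inside Phlpp1, where all 4 were listed in every DAY6 and DAY9 library. The longest lost runs held 6 regions, inside Rad51b, near 1700129C05Rik, inside Lpp and inside Phldb2, and other runs of 6 exist. No region of the run in Phldb2, which spans 23.4 kb, was listed in any later library. At equal numbers of peaks there were 270 gained and 125 lost clusters, so which set has more runs depends on the number of peaks. Leaving out a library gave 296 and 1676 without MEF replicate 1, 201 and 2475 without MEF replicate 2, 374 and 675 without DAY3 replicate 1, and 411 and 687 without DAY3 replicate 2.

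Among promoter windows, 250 bases before to 50 after a start, 174 lay in gained, 302 in lost and 10745 in shared regions, of 21263 in the table. The AP-1 motif TGAGTCA was in 55 lost windows (18.2%) and in 11 gained ones (6.32%), against 4.66% of all windows and 2.98% of shared ones. At equal numbers of peaks it was in 23.0% of lost and 4.91% of gained windows. The TEAD motif GGAATG was in 18.2% of lost and 8.05% of gained windows, against 13.6% of all. The octamer was in 7 gained (4.02%) and 4 lost windows (1.32%), against 1.66% of all, and in 3.21% and 2.46% at equal numbers. The SOX motif was in 10.9% of gained and 4.64% of lost windows, but at equal numbers in 6.62% and 7.38%, so the order turned. The KLF motif GGGNGTGG was in 26.4% of gained, 17.9% of lost and 19.4% of all windows. The CEBP motif TTGCNNAA was in 18.4% of gained and 13.2% of lost windows, against 10.2% of all, and in 11.5% and 10.7% at equal numbers. The RUNX motif TGTGGT was in 16.7% and 19.5%, against 15.0% of all, and the E-box CACGTG in 4.02% and 3.64%, against 7.84%. Each motif was searched on both strands, and a match describes these letters only. The octamer and SOX counts are small, and nearly all regions of both sets lie outside these windows.

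**Figure D4:**
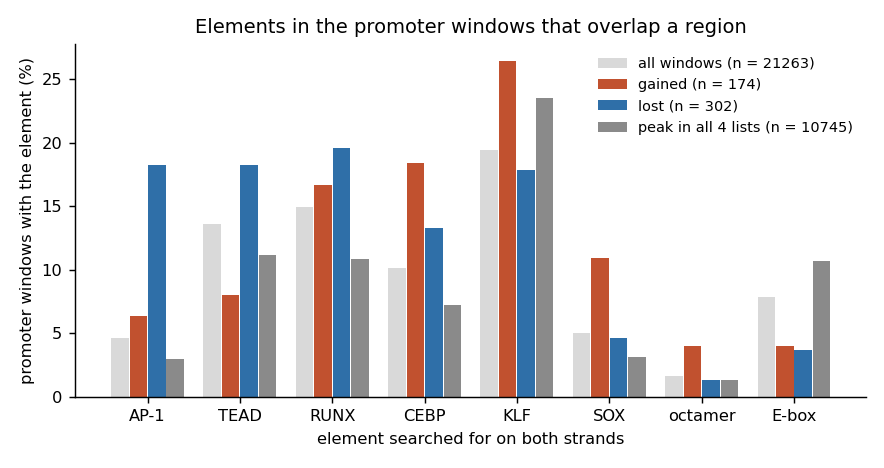
Share of promoter windows (percent) that hold each motif, for windows in gained, lost and shared regions and for all promoters of the table. AP-1 stands at 18.2% in lost and 6.32% in gained windows, and the octamer at 1.32% and 4.02%.

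Small RNA genes held examples of both directions. Of 1005 miRNA hairpins, 110 (10.9%) had a gained region within 10 kb and 191 (19%) a lost one. The miR-290 cluster, a set of miRNAs abundant in embryonic stem cells, lies on chromosome 7 and had 2 gained and no lost region within 10 kb of its hairpins. Mature sequences are given as in RefSeq, with the seed (bases 2 to 8) in capitals, for the members that share the seed start AAGUGC and for the epithelial miR-200c beside them.
miR-290a-3p: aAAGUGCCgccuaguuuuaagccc
miR-291b-3p: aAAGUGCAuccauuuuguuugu
miR-294-3p: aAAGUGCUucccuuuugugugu
miR-295-3p: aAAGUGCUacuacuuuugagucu
miR-200c-3p: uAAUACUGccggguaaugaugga
The seed of miR-294-3p and miR-295-3p is the same, AAGUGCU, and the seeds of miR-290a-3p and miR-291b-3p differ from it in their last base. Within 20 kb, gained regions lay 4.60 kb (5.66 and 5.53 at DAY3), 6.06 kb (9.17 and 7.36) and 17.0 kb (3.65 and 3.19) upstream of the miR-290a hairpin. All 3 were listed in all 6 later libraries. A further gained region lay 24.3 kb upstream, and the nearest lost region lay 45.9 kb away. The miR-302 cluster, in which miR-302b-3p and miR-302d-3p have the seed AAGUGCU, had no gained region within 10 kb.

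The nearest gained region to miR-200c, a miRNA that targets Zeb factors, lay 11.7 kb away with 7.58 and 6.33 at DAY3 and was not listed in ESC. A region 5.53 kb away was shared by all 10 libraries. Lost regions without gained ones within 10 kb lay at 7 of 9 hairpins of fibroblast-associated miRNAs and at 4 of 6 of the p53 and inflammatory group. The hairpins of miR-29b-2, miR-29c, miR-34b and miR-34c had none. These hairpins are not all separate loci: miR-29a and miR-29b-1 share their lost regions, as do miR-199a-2 and miR-214. Of all 1005 hairpins 19% had a lost region, with or without a gained one.
miR-199a-3p: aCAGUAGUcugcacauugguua
miR-214-3p: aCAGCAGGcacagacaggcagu
miR-29a-3p: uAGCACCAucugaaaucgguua
miR-34a-5p: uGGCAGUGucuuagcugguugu
miR-155-5p: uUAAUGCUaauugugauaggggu
These are shown as the products of hairpins with lost regions and include miR-29a, known to target collagen transcripts. The lost region 0.266 kb from the miR-29a hairpin had 5.39 and 5.46 in MEF, and the one 1.52 kb from miR-34a, a target of p53, had 3.85 and 5.19. The miR-199a-2 hairpin lay within a region shared by all 4 libraries, with a lost one 1.70 kb away. Mir155 had lost regions 1.82 kb (5.36 and 4.38) and 6.33 kb away.

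Regions gained at day 3 were mostly still listed in the sorted cells of later days. A peak lay in 81.4% and 76.7% of them at DAY6, in 77.2% and 77.0% at DAY9 and in 32.3% and 31.0% in ESC. Lost regions were listed in 8.08% and 6.67% at DAY6, 9.64% and 9.67% at DAY9 and 11.4% and 11.3% in ESC. Shared regions gave 91.7% and 89.7%, 88.9% and 88.8%, and 82.3% and 82.0%. The stage means were 79.0% ± 3.29 for gained and 7.37% ± 0.997 for lost regions at DAY6, and 31.7% ± 0.935 and 11.4% ± 0.0842 in ESC (SD, n = 2). DAY9, whose libraries differed by 1.42 times counting noise, was counted as 1 sample with 77.1% and 9.65%. The gained share exceeded the lost share by 50.3 ± 27.5 percentage points (SD, n = 5 samples) and did so in 5 of 5. These 5 samples were the 2 DAY6 libraries, DAY9 as 1 sample and the 2 ESC libraries. The SD therefore covers differences between stages and cell lines as well as between replicates. An exact two-sided sign-flip permutation test gave p = 0.0625, the smallest it can give with 5 samples. The difference lay between 19.7 points in ESC and 73.3 points at DAY6.

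**Figure D5:**
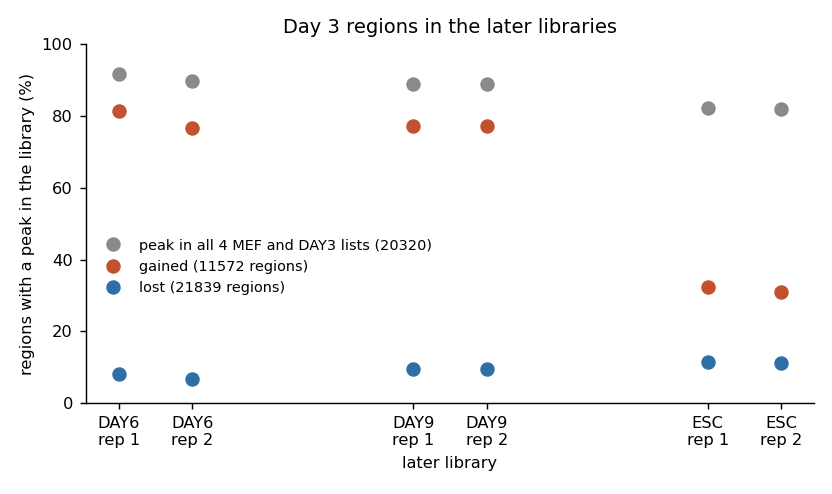
Share of gained, lost and shared regions (percent) that hold a peak in each of the 6 DAY6, DAY9 and ESC libraries, which took no part in choosing the regions. Gained regions lie between 76.7% and 81.4% at DAY6 and DAY9 and at 31.0% and 32.3% in ESC, and lost regions lie between 6.67% and 11.4%.

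The gained set parted by its presence in ESC. Listed in both libraries of DAY6, DAY9 and ESC were 2658 gained regions (23.0%), and 4786 (41.4%) were listed in both of DAY6 and DAY9 but not in both ESC libraries. No later library listed 1044 (9.02%). Of the lost regions 17371 (79.5%) were listed in no later library, 674 (3.09%) in both ESC libraries but not in both of any earlier stage, and 459 (2.1%) in both libraries of all 3 stages. Strong gained regions were listed more often later: with the regions split by fold into 4 classes, DAY6 replicate 1 listed 65.2% of the lowest and 96.6% of the highest, and ESC replicate 1 28.9% and 39.0%. For lost regions the order was opposite, with 10.9% of the lowest and 4.25% of the highest class listed in DAY6 replicate 1. Gained regions at gene starts were listed in ESC in 52.1% and 49.9% of cases, against 30.4% and 29.6% of those more than 10 kb away. Lost regions at gene starts were listed in ESC in 33.3% and 36.4%, against 9.75% and 9.61% of the distant ones.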

How the data were processed

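Peak lists of 10 ATAC-seq libraries were used, mainly the 2 MEF and 2 DAY3 lists. Per the submitters' processing notes, Bowtie2 2.3.2, MACS2 2.1.1, deepTools 2.3.6 and the build mm10 were used; duplicate handling, the transposase offset and filters are not given in the sources used here. The authors deposited 1 list per library, with a score, a fold enrichment (a linear ratio to local background) and −log10 p- and q-values per peak. All of these are the authors' values, and read totals are not given in the sources used here. The lists hold no summits, so peak midpoints stood in for them. From the fold and −log10 p-value, whole summit pileups and background pileups were recovered (at least 99.989% of peaks whole, tolerance 0.01), and pairs of libraries under 2 times counting noise were counted as 1 sample.

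Overlapping peaks (at least 1 bp) of the 4 lists were merged with Python 3.11.15, numpy 2.4.6 and pandas 2.3.3. Gene bodies (21887 protein-coding genes) and starts (17492 genes; either gene end for the others) came from RefSeq, GRCm38.p6. With no genome sequence used here, motifs were searched in the promoter table in place of windows at summits. The later share was tested with an exact sign-flip permutation test. Region calls and distances were tested on simulated data. The gained and lost sets, the 26 gene lists and the tests were chosen with earlier results of these data known. Named were the 8 top regions of each set (1 gained region is not reported here) and the 10 top genes of each set, up to 3 top genes per list and direction, the 4 largest clusters, and members of the cassette, naive and epithelial lists; gene starts, marker genes, miRNAs and printed promoters beyond these were chosen after their values were seen. Alternatives were equal numbers of peaks, the top 50%, 50% coverage, 500 bp windows, other distances and leaving out libraries.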

Additional observations from a re-analysis of the deposited data

How the results depend on the processing

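With equal numbers of peaks there were 12049 lost regions, a gained share of 53.7% of changed regions, gene-start shares of 6.51% (gained) and 2.76% (lost), and 270 gained and 125 lost clusters. With the top 50% of each list there were 5721 gained and 11077 lost regions, a gained share of 34.1%, gene-start shares of 6.12% and 5.00%, 3468 genes with gained regions, and 21 and 97 clusters. With 50% coverage the gained share was 36.2% and the gene-start shares 4.75% and 3.99%. Gene-start shares were 7.63% and 6.35% within 2.5 kb, and 2.78% and 2.28% with starts of the promoter table only, which was added after seeing the data. Gaps of at most 5 kb gave 58 and 176 clusters. With windows of 500 bp around midpoints the counts of regions, genes and clusters stayed within 1.5 times, and 23 of 26 gene lists stayed on the same side of the share over all regions. The cassette (37.5%), muscle (33.3%) and mesenchymal lists (35.0%) turned there. Over all 8 such settings, 22 to 24 lists stayed on their side.

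Leaving out 1 library at a time gave 12590 to 16992 gained and 23935 to 43745 lost regions, gained shares of 22.3% to 41.5%, gene-start shares of 4.40% to 6.89% (gained) and 3.40% to 4.32% (lost), 5894 to 7189 and 8444 to 11259 genes, and 201 to 411 and 675 to 2475 clusters. The later difference then lay between 39.6 and 54.4 points, with p = 0.0625 in the exact permutation test. With every library counted separately it was 53.1 points and the exact permutation p was 0.03125, again the smallest the test can give. That setting counts the DAY9 libraries, which differed by 1.42 times counting noise, as separate samples. No paired analysis was possible because replicate numbers did not pair MEF and DAY3 libraries (correlation of same-numbered deviations -0.0047 over 20320 shared regions) and the sets come from no test. Motifs in windows at summits were not run, nor were windows around summits, since the lists give none. The lists hold no read depth, and a missing peak may lie just under the calling threshold.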

Other observations

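On the X chromosome gained regions made up 49.8% of the changed regions, 291 gained against 293 lost, while the 19 autosomes lay between 31.7% and 36.2%. The X chromosome held 2.28% and 1.68% of the MEF peaks, 2.46% and 2.54% of the DAY3 peaks, 2.73% and 2.62% at DAY6, 2.57% and 2.56% at DAY9 and 2.83% and 3.04% in ESC. The MEF libraries differed from each other by more than the DAY3 libraries did.

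The let-7 hairpins, whose products are abundant in differentiated cells, differed among themselves. The hairpins of let-7a-1, let-7d and let-7f-1, which lie together on chromosome 13, had 1 gained and no lost region within 10 kb. Those of let-7c-1, let-7e and let-7i had 1 lost and no gained one. Near the muscle miRNAs miR-133b and miR-206 there were 2 lost regions within 10 kb, of which the nearest overlapped the miR-206 hairpin, and none gained. Gained regions lay 4.44 kb from the hairpin of miR-205, an epithelial miRNA, 0.538 kb from that of miR-128-2 and 0.283 kb from that of miR-193b.

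MEF replicate 2 held a peak at the starts of Zfp42, Esrrb, Dppa5a and Utf1, genes of pluripotent cells, and MEF replicate 1 at that of Utf1 only. At DAY3 these were Zfp42, Esrrb and Utf1 in replicate 1 and Utf1 in replicate 2.

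Some lost regions at gene starts were listed again later. The start of Foxf2, a mesenchymal factor, had folds of 3.12 and 3.33 in MEF, none at DAY3, and was listed in 5 of the 6 later libraries. The start of Dnmt3l, a germ-line cofactor of DNA methylation, had 5.44 and 2.57 in MEF, no peak at DAY3, DAY6 or DAY9, and 3.35 and 4.34 in ESC.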
